A study of Mus musculus with 6 samples.

Results

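The inflammasome, pyroptosis and necroptosis genes were followed in the liver of mice with a deletion of *Spns1*, which encodes a lysosomal transporter of lysophospholipids. The set holds 10 genes, taken by name from the 54532 genes of the deposited count table: *Nlrp3*, *Pycard*, *Casp1*, *Casp4*, *Gsdmd*, *Il1b*, *Casp8*, *Ripk1*, *Ripk3* and *Mlkl*. All 10 were found once, and all 10 had enough counts to be among the 15449 genes tested. RNA-Seq of whole liver was available for 3 g*Spns1*-cKO mice and 3 control mice, with 1 library of poly-A selected RNA per liver, each liver being taken as a separate mouse. The g*Spns1*-cKO mice carried *Spns1* alleles with loxP sites around an exon and a Rosa26Cre-ERT2 allele, a Cre recombinase active throughout the body after tamoxifen, which was injected in the second and the third week after birth. Littermates with the floxed alleles and no Cre served as controls according to the methods, although the sample labels call the control livers wild type, and whether they received tamoxifen and how old the mice were at collection are not given in the sources used here. Because the deletion was not limited to hepatocytes, every cell type of the liver could carry it.

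An inflammasome is a protein complex that a sensor such as NLRP3 builds with the adaptor ASC, encoded by *Pycard*, to activate the protease caspase-1. Caspase-1 matures interleukin-1β and cuts gasdermin D, whose released fragment forms pores in the plasma membrane and ends the cell by pyroptosis; caspase-4, the mouse protein also known as caspase-11, cuts gasdermin D after it senses bacterial lipopolysaccharide inside the cell. In necroptosis, the kinases RIPK1 and RIPK3 activate MLKL, which breaks the plasma membrane, and caspase-8 holds this route in check. In the liver, macrophages are a well-known source of NLRP3 and interleukin-1β, whereas hepatocytes normally have very little RIPK3.

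In g*Spns1*-cKO livers, 5 of the 10 genes rose (*Nlrp3*, *Casp4*, *Ripk3*, *Casp1* and *Mlkl*), by 2.05-fold to 5.41-fold, and 2 fell, *Gsdmd* and *Casp8*. The other 3, *Pycard*, *Il1b* and *Ripk1*, did not pass an adjusted p of 0.05 (edgeR quasi-likelihood test on all 15449 genes, counts scaled by TMM). Over all genes tested, 21.3% passed as higher and 20.5% as lower, or 41.8% in either direction, so that changes were common in these livers. The groups of 3 livers did not overlap in 8 of the 10 genes, 6 higher (27.1% of all genes tested) and 2 lower (26.9%), where 54.1% of all genes showed no overlap. Higher and lower calls were split by abundance in these genes and in the whole table. Of the 7 genes with a mean under 10 CPM (TMM-scaled counts relative to library size) over the 6 libraries, 5 rose and none fell, where 29.4% of all such genes rose and 8.66% fell. Of the 3 more abundant genes, *Gsdmd*, *Ripk1* and *Casp8*, none rose and 2 fell, where 13.7% and 31.5% of such genes did. The median log2 fold change of the 10 genes was 1.04, beside 0.0138 for all genes tested.

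**Figure D1:**
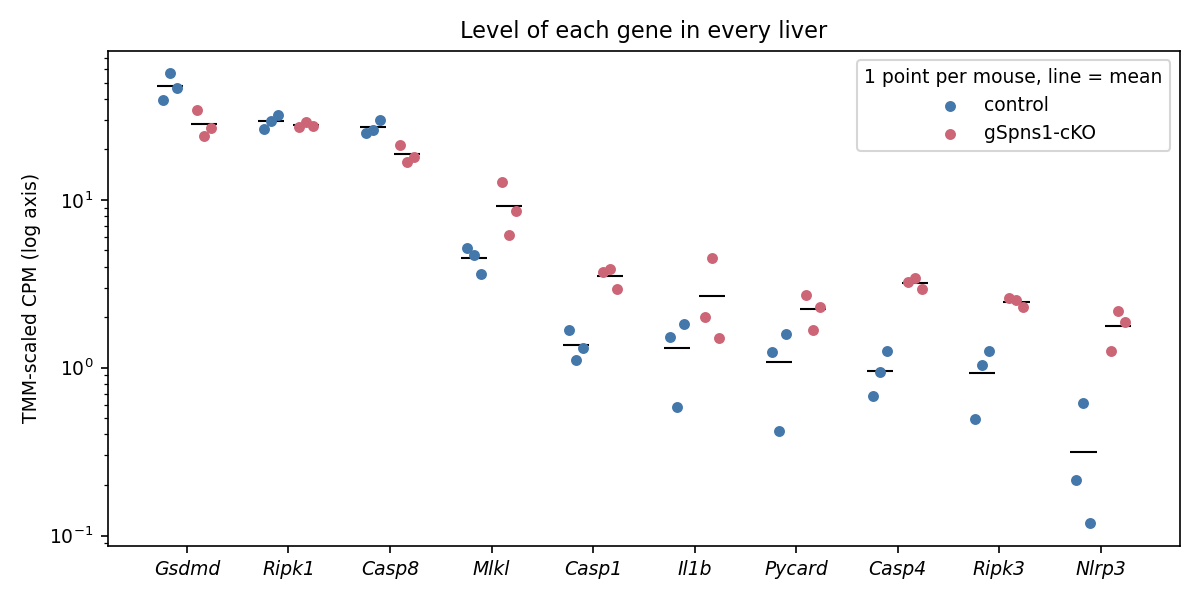
TMM-scaled CPM (log axis) of the 10 genes in each of the 3 control and 3 gSpns1-cKO livers, with 1 point per mouse and a line at the group mean. The groups do not overlap in 8 genes; points of the 2 groups overlap for Il1b and Ripk1.

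The libraries held between 30350002 and 35295611 counts, so that 3 counts, taken as the floor of detection, stood for 0.0763 to 0.119 CPM, with counting error alone considered. The TMM factors ran from 0.834 to 0.873 for the controls and from 1.16 to 1.18 for the cKO livers, and scaling by library size only moved the median over all genes to a log2 fold change of 0.457. With that scaling 7289 genes were higher and 970 lower, beside 3286 and 3166 with TMM, and 8 of the 10 genes were higher and none lower. *Spns1* itself was counted 1008, 1562 and 875 times in the controls and 642, 1175 and 698 times in the cKO livers, with log2 fold change at -0.87 ± 0.25 (SE, edgeR adjusted p = 0.0300). Reads on undeleted exons are included in these counts. The *Spns1* call was lost without control replicate 2 (log2 fold change -0.68, edgeR adjusted p = 0.0785), without g*Spns1*-cKO replicate 1 (-0.74, adjusted p = 0.0910) and without g*Spns1*-cKO replicate 3 (-0.74, adjusted p = 0.0830). Hepatocyte transcripts such as *Alb* were abundant in every library, as the tissue label states.

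Compared per kilobase of gene length, the 10 genes spanned a wide range of levels in control liver. *Gsdmd* was at 20.04 ± 3.64 CPM per kilobase, *Casp8* at 9.34 ± 0.860, *Ripk1* at 3.52 ± 0.324 and *Mlkl* at 1.95 ± 0.338 (SD, n = 3), each separated from the next by more than the sum of both SDs. *Casp1* (0.908 ± 0.192), *Il1b* (0.687 ± 0.338), *Ripk3* (0.408 ± 0.172), *Pycard* (0.285 ± 0.157) and *Casp4* (0.259 ± 0.0795) followed, and neighbours in this order did not differ beyond their spread. *Nlrp3* was lowest, at 0.0780 ± 0.0652 CPM per kilobase. In g*Spns1*-cKO liver *Gsdmd* and *Casp8* still led, at 11.9 ± 2.23 and 6.47 ± 0.776, and *Mlkl* stood at 4.001 ± 1.46 beside 3.35 ± 0.137 for *Ripk1*, a difference within their spread. *Casp1* (2.34 ± 0.339), *Il1b* (1.40 ± 0.837) and *Ripk3* (1.08 ± 0.0684) came next, where neither *Casp1* and *Il1b* nor *Il1b* and *Ripk3* differed beyond their spread. *Casp4* stood at 0.864 ± 0.0634, and the lowest pair, *Pycard* at 0.586 ± 0.137 and *Nlrp3* at 0.437 ± 0.118 CPM per kilobase, lay within each other's spread. *Gsdmd*, the executioner of pyroptosis, thus had the highest level of the 10 genes in both groups on this scale. The deposited length of *Pycard*, 3800 bases, covers most of its span on the chromosome, and its low place on this scale depends on that length.

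*Nlrp3* (ENSMUSG00000032691, plus strand of chromosome 11, 59541568 to 59566956, GRCm38), the sensor, was counted 6, 19 and 3 times in the controls and 45, 84 and 74 times in the cKO livers. These corresponded to 0.316 ± 0.265 CPM and 1.77 ± 0.479 CPM (SD, n = 3). Every g*Spns1*-cKO liver was above every control liver, and 1 control was at the floor of 3 counts. For *Nlrp3* the log2 fold change was 2.44 ± 0.52 (SE, 95% interval 1.29 to 3.58, edgeR adjusted p = 0.00408), or 5.41-fold. Control replicate 2, the highest control, weighed on the size: without it the log2 fold change of *Nlrp3* was 3.37 (edgeR adjusted p = 0.00171).

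*Pycard* (ENSMUSG00000030793, minus strand of chromosome 7, 127989708 to 127993867), whose product ASC joins sensor and caspase, was counted 35, 13 and 40 times in the controls and 97, 64 and 91 times in the cKO livers. Its levels of 1.08 ± 0.596 and 2.23 ± 0.520 CPM (SD, n = 3) did not overlap between groups, but control replicate 2 was far below the other two controls. Its log2 fold change was 1.05 ± 0.42 (SE, 95% interval 0.11 to 1.99) and missed the threshold (edgeR adjusted p = 0.0684). Over the alternatives tried, the adjusted p of *Pycard* ranged from 0.0118 to 0.153. *Pycard* passed with library size only (adjusted p = 0.0118), with upper-quartile scaling (adjusted p = 0.0432), with DESeq2 (adjusted p = 0.0441) and with the filter of at least 1 count in any library (adjusted p = 0.0122). It also passed with the replicate number of the labels as a block (edgeR adjusted p = 0.0312). Among the fits that left out 1 mouse, *Pycard* passed only without control replicate 3, with a log2 fold change of 1.41 (edgeR adjusted p = 0.0451), and had 0.65 without control replicate 2 (edgeR adjusted p = 0.152).

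*Casp1* and *Casp4*, the inflammatory caspases, lie side by side on the plus strand of chromosome 9. *Casp1* (ENSMUSG00000025888, 5298517 to 5307265) was counted 47, 34 and 33 times in the controls and 133, 149 and 115 times in the cKO livers. The log2 fold change of *Casp1* was 1.36 ± 0.26 (SE, edgeR adjusted p = 0.00219), from 1.36 ± 0.288 to 3.50 ± 0.508 CPM (SD, n = 3). *Casp4* (ENSMUSG00000033538, 5308828 to 5336783) was counted 19, 29 and 32 times against 117, 131 and 116. Its log2 fold change was 1.74 ± 0.28 (SE, edgeR adjusted p = 0.000948), from 0.961 ± 0.295 to 3.21 ± 0.235 CPM (SD, n = 3). Both genes were separated between groups and both kept their calls when any single mouse was left out. The next gene along, *Casp12* (5345430 to 5373032), a further caspase of the same family, was counted 43, 58 and 17 times against 346, 283 and 227, with log2 fold change at 2.46 ± 0.34 (SE, edgeR adjusted p = 0.000486). The table lists no other gene between the start of *Casp1* and the end of *Casp12*. These 3 genes are related in sequence, and how reads matching more than one gene were counted is not given in the sources used here.

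*Gsdmd* (ENSMUSG00000022575, plus strand of chromosome 15, 75862327 to 75867408), the pore-forming substrate of these caspases, moved the other way. It was counted 1114, 1749 and 1177 times in the controls and 1229, 916 and 1057 times in the cKO livers. With TMM scaling this was 47.6 ± 8.64 CPM and 28.3 ± 5.29 CPM (SD, n = 3), and each cKO liver lay under the lowest control. This gave *Gsdmd* a log2 fold change that was -0.75 ± 0.16 (SE, edgeR adjusted p = 0.00538). With library size only, *Gsdmd* had a log2 fold change of -0.31 and did not pass (edgeR adjusted p = 0.135). A ratio of counts within a library does not depend on scaling: there were 1.94 to 4.22 *Casp1* counts per 100 *Gsdmd* counts in control livers and 10.8 to 16.3 in g*Spns1*-cKO livers, a 4.37-fold difference with no overlap. For 3 mice against 3, the two-sided exact permutation test cannot go below p = 0.1, and this ratio gave p = 0.1.

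*Il1b* (ENSMUSG00000027398, minus strand of chromosome 2, 129364570 to 129371139), which encodes the cytokine that caspase-1 matures, was counted 43, 18 and 46 times in the controls and 72, 172 and 59 times in the cKO livers. The g*Spns1*-cKO livers spread widely, 1.31 ± 0.645 CPM in control against 2.66 ± 1.597 CPM in g*Spns1*-cKO liver (SD, n = 3), and the groups overlapped. For *Il1b* the log2 fold change was 1.03 ± 0.51 (SE, 95% interval -0.14 to 2.21, edgeR adjusted p = 0.141). One liver decided its size: without g*Spns1*-cKO replicate 2 the log2 fold change of *Il1b* was 0.43 (edgeR adjusted p = 0.490). It passed with library size only (adjusted p = 0.0358) and with the filter of at least 1 count in any library (adjusted p = 0.00766). A short antisense gene, *Il1bos*, overlaps it with 14 counts in all libraries together.

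**Figure D2:**
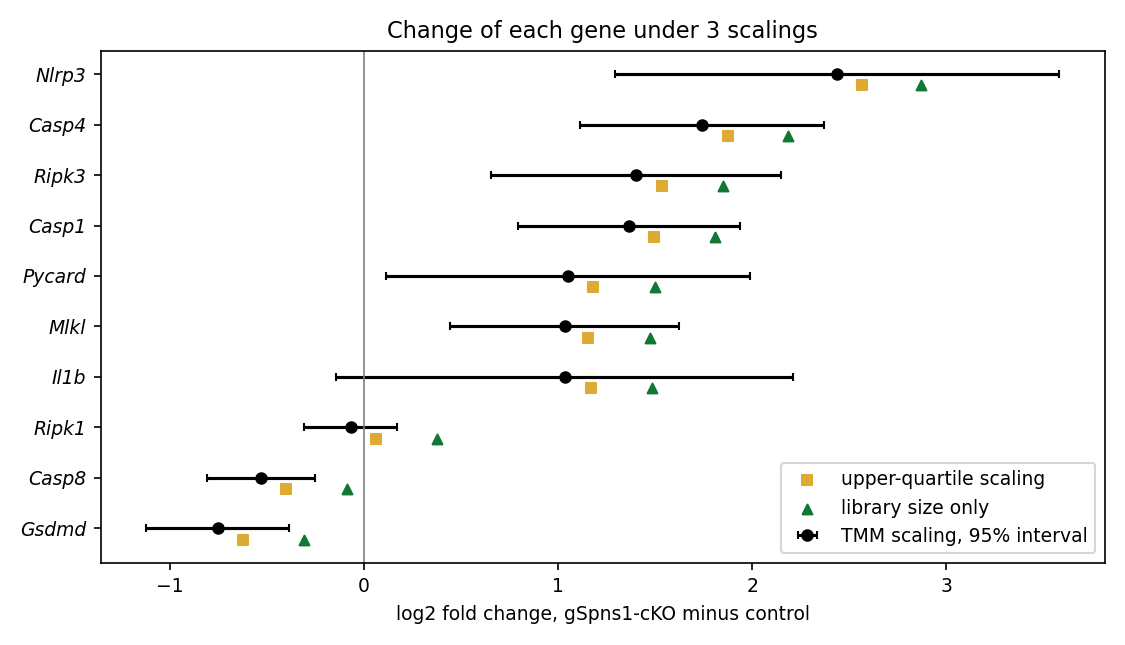
Log2 fold change (gSpns1-cKO minus control) of the 10 genes with TMM scaling (circles, 95% interval), upper-quartile scaling (squares) and library size only (triangles). The intervals of Il1b and Ripk1 include 0, and Ripk1 changes sign with both other scalings.

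The genes of necroptosis did not move alike. *Ripk1* (ENSMUSG00000021408, plus strand of chromosome 13, 34002363 to 34037147), the kinase that starts the pathway, was counted 746, 909 and 808 times in the controls and 974, 1123 and 1085 times in the cKO livers. With TMM scaling these were 29.3 ± 2.70 and 27.98 ± 1.15 CPM (SD, n = 3), with overlapping groups. The log2 fold change was -0.067 ± 0.11 (SE, 95% interval -0.31 to 0.17, edgeR adjusted p = 0.649). It was 0.065 with upper-quartile scaling (adjusted p = 0.662) and 0.38 with library size only (adjusted p = 0.0128), so no direction can be given for *Ripk1*. The gene shares 432 bases with *Serpinb6a* on the opposite strand, which had 6361 counts in all libraries.

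*Ripk3* (ENSMUSG00000022221, minus strand of chromosome 14, 55784995 to 55788865), the partner kinase, was counted 14, 32 and 32 times in the controls and 93, 97 and 90 times in the cKO livers. It rose from 0.934 ± 0.394 to 2.47 ± 0.157 CPM (SD, n = 3), with log2 fold change at 1.40 ± 0.34 (SE, edgeR adjusted p = 0.00766). Per 100 *Ripk1* counts of the same library, there were 1.88, 3.52 and 3.96 *Ripk3* counts among the controls against 9.55, 8.64 and 8.29 in the cKO livers. The 2 kinases therefore stood in a 2.97-fold different ratio, without overlap between groups (two-sided exact permutation test, p = 0.1).

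*Mlkl* (ENSMUSG00000012519, minus strand of chromosome 8, 111311797 to 111338177), whose product ruptures the membrane, was counted 145, 144 and 92 times in the controls and 462, 238 and 338 times in the cKO livers. It rose from 4.49 ± 0.778 to 9.22 ± 3.36 CPM (SD, n = 3), and g*Spns1*-cKO replicate 2 was closest to the controls. The log2 fold change was 1.03 ± 0.26 (SE, edgeR adjusted p = 0.0114). The call was lost without control replicate 3, where the log2 fold change of *Mlkl* was 0.89 (edgeR adjusted p = 0.0501). There were 11.4 to 19.4 *Mlkl* counts per 100 *Ripk1* counts in control livers and 21.2 to 47.4 in g*Spns1*-cKO livers, again without overlap. The ratio of *Mlkl* to *Ripk3* overlapped between the groups (two-sided exact permutation test, p = 0.5).

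*Casp8* (ENSMUSG00000026029, plus strand of chromosome 1, 58795374 to 58847503), the protease that restrains necroptosis and starts death-receptor apoptosis, was counted 707, 802 and 755 times in the controls and 762, 645 and 712 times in the cKO livers. With TMM scaling it fell from 27.0 ± 2.49 to 18.7 ± 2.24 CPM (SD, n = 3), with no overlap. For *Casp8* the log2 fold change was -0.53 ± 0.13 (SE, edgeR adjusted p = 0.00712). With library size only the log2 fold change of *Casp8* was -0.085 and did not pass (edgeR adjusted p = 0.572). Relative to *Ripk1*, which needs no scaling, there were 88.2 to 94.8 *Casp8* counts per 100 in control livers and 57.4 to 78.2 in g*Spns1*-cKO livers.

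**Figure D3:**
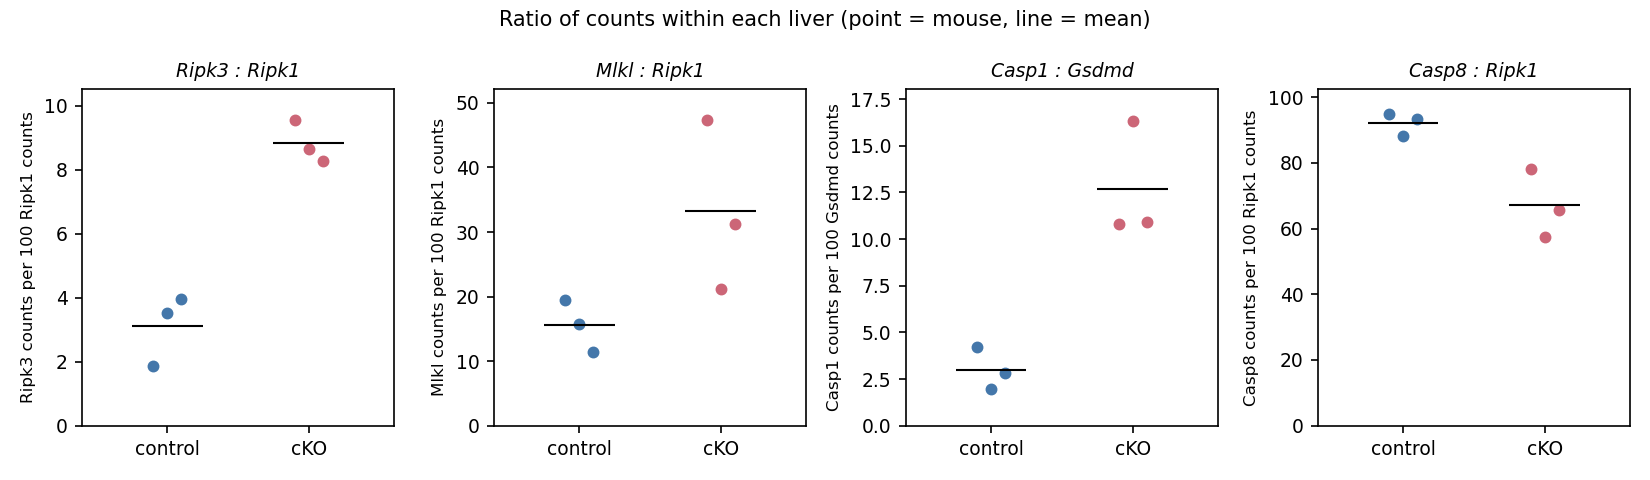
Counts of one gene per 100 counts of another in the same library, for 4 pairs, with 1 point per mouse and a line at the group mean. The groups do not overlap in any of the 4 panels: Ripk3, Mlkl and Casp1 are higher in gSpns1-cKO livers relative to their partner, and Casp8 is lower relative to Ripk1. The panels were chosen after the values were seen. Other pairs were computed and are not drawn: Nlrp3 to Pycard, Casp4 to Casp1, Gsdmd to Casp8 and Mlkl to Ripk3. In each of these the groups overlapped.

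The sequences before the start sites of the 5 genes that rose are shown because these genes rose in the same livers. They come from the RefSeq promoter table (GRCm38.p6), which holds 9 of the 10 genes; each runs 5′ to 3′ on the gene's strand over the 250 bases before the start, and for *Nlrp3* and *Casp4*, which have 2 starts each, one is given. Capitals mark a match, on either strand, to GGG, any 2 bases, TTTCC (NF-κB), to GAAA, any 2 bases, GAAA (IRF), to GAGGAAG (PU.1) or to TGANTCA (AP-1).
Nlrp3, chr11:59542436-59542685, plus strand: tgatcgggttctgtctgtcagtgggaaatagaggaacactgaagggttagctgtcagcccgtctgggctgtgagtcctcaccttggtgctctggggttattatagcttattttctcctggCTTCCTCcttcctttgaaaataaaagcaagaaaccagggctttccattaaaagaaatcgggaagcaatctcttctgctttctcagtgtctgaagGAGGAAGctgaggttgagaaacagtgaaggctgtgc
Casp1, chr9:5298267-5298516, plus strand: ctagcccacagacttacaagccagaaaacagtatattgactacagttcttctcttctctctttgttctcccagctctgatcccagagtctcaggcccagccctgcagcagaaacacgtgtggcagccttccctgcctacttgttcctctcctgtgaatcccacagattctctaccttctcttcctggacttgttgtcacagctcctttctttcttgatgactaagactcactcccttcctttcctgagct
Casp4, chr9:5308599-5308848, plus strand: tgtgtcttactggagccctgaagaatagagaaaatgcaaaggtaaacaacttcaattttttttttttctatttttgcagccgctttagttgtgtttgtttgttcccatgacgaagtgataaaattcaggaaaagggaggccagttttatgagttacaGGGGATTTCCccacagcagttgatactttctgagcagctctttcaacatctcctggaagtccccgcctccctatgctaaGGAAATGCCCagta
Ripk3, chr14:55788858-55789107, minus strand: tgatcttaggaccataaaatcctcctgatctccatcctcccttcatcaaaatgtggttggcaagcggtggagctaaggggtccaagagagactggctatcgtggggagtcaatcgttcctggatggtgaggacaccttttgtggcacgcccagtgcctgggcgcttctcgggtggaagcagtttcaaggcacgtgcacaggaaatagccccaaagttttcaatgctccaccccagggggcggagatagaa
Mlkl, chr8:111338206-111338455, minus strand: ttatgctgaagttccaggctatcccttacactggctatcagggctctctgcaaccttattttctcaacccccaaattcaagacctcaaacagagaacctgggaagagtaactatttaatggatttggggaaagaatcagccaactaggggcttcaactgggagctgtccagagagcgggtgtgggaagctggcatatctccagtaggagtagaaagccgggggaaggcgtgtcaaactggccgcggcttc
The *Casp4* window held a pair of NF-κB matches, from -93 to -84 and from -14 to -5 counted from the start, where 1.41% of the 32851 promoter windows of the table hold at least 1. The *Nlrp3* window held a pair of PU.1 matches, from -130 to -124 and from -36 to -30, against 10.6% of windows, and the window at its other start held none. Of the genes that did not pass, *Pycard* held 1 PU.1 match, from -43 to -37, and 1 of the 2 *Ripk1* windows held 1. The windows of *Casp1*, *Ripk3* and *Mlkl* held none of the 4 motifs, nor did those of *Il1b* and *Casp8*. IRF and AP-1 matches occur in 2.98% and 6.75% of windows and in none of those of the 9 genes. A match is a run of letters and was not tested as a binding site.

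Other genes of the pathways were read from 5 further lists, given by counts beside the same background of 21.3% higher and 20.5% lower. That background differed with abundance. It was 29.4% higher and 8.66% lower under a mean of 10 CPM, and 13.7% and 31.5% from 10 CPM on. Of 25 inflammasome sensors and regulators, 24 were tested, 14 rose and 2 fell, with a median log2 fold change of 0.935. All 14 that rose had a mean under 10 CPM and the 2 that fell had a mean above it, the same split by abundance as in the whole table. *Casp12*, given above, rose most. *Aim2*, a sensor of cytosolic DNA, was counted 21, 10 and 11 times in the controls and 52, 87 and 97 times in the cKO livers, with log2 fold change at 2.03 (edgeR adjusted p = 0.00241); it overlaps *Cadm3*, which had more counts, on the opposite strand. *Mefv*, which encodes the sensor pyrin, was counted 5, 8 and 14 times against 59, 50 and 26, with log2 fold change at 1.87 (edgeR adjusted p = 0.0149), and lost its call without control replicate 1 or 2. Without g*Spns1*-cKO replicate 1, 9 genes of this list passed as higher, and without g*Spns1*-cKO replicate 2, 4 passed as lower.

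Further members of this list were chosen for description after their values were seen. *Naip1*, *Naip2*, *Naip5* and *Naip6*, receptors of bacterial flagellin and secretion needles, all rose, by 0.87 to 1.62 on the log2 scale, with overlapping groups for *Naip1*, while their partner *Nlrc4* did not pass (log2 fold change 0.55, edgeR adjusted p = 0.221). The Naip genes are close paralogs, so single members are uncertain. The guanylate-binding protein genes *Gbp2*, *Gbp3* and *Gbp5*, which open bacterial membranes upstream of caspase-11, rose by 1.78, 0.81 and 1.00. *P2rx7*, the ATP-gated channel that triggers NLRP3, rose by 1.33 and the pannexin gene *Panx1* by 1.44. *Nek7*, which encodes a kinase required by NLRP3, did not pass (log2 fold change -0.23, edgeR adjusted p = 0.132). The 2 genes that fell were *Txnip*, at -1.30 (edgeR adjusted p = 0.00757), and *Nlrx1*, at -0.76 (edgeR adjusted p = 0.00159). The abundant sensor genes *Nlrp6* (mean 196.5 to 142.9 CPM, edgeR adjusted p = 0.0615) and *Nlrp12* (51.45 to 31.27 CPM, edgeR adjusted p = 0.110) did not pass. Each cKO liver lay under the lowest control for both. The summed level of the list was 595.7 to 681.2 CPM in control livers and 457.5 to 560.1 CPM in g*Spns1*-cKO livers.

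Of 17 interleukin-1 family ligands, receptors and signalling genes, 15 were tested, 4 rose and 4 fell, with a median log2 fold change of 0.0872. *Il18bp*, the decoy that binds interleukin-18, rose from 243, 291 and 366 counts to 1248, 1137 and 1142, with log2 fold change at 1.52 (edgeR adjusted p = 0.000246), and *Il1rn*, the natural antagonist of the interleukin-1 receptor, rose by 1.30 (edgeR adjusted p = 0.00872). *Il1rap*, the shared receptor subunit, fell from 5160, 4988 and 4863 counts to 2594, 2578 and 2675, with log2 fold change at -1.37 (edgeR adjusted p = 1.93e-05); *Gm20319* overlaps it on the opposite strand with 5745 counts. The other genes that passed were *Il1a* and *Irak3* as higher, and *Il18*, *Myd88* and *Irak1* as lower. Some of these overlap genes with more counts on the opposite strand. *Irak3* overlaps *Tmbim4* (13011 counts in all libraries), *Il18* overlaps *Bco2* (3213) and *Myd88* overlaps *Acaa1a* (58475). *Il18bp* shares 80 bases with *Numa1* (11817). *Il18*, the second cytokine matured by caspase-1, had a log2 fold change of -0.47 (edgeR adjusted p = 0.0405). With library size only, 7 genes of the list were higher and 1 lower.

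**Figure D4:**
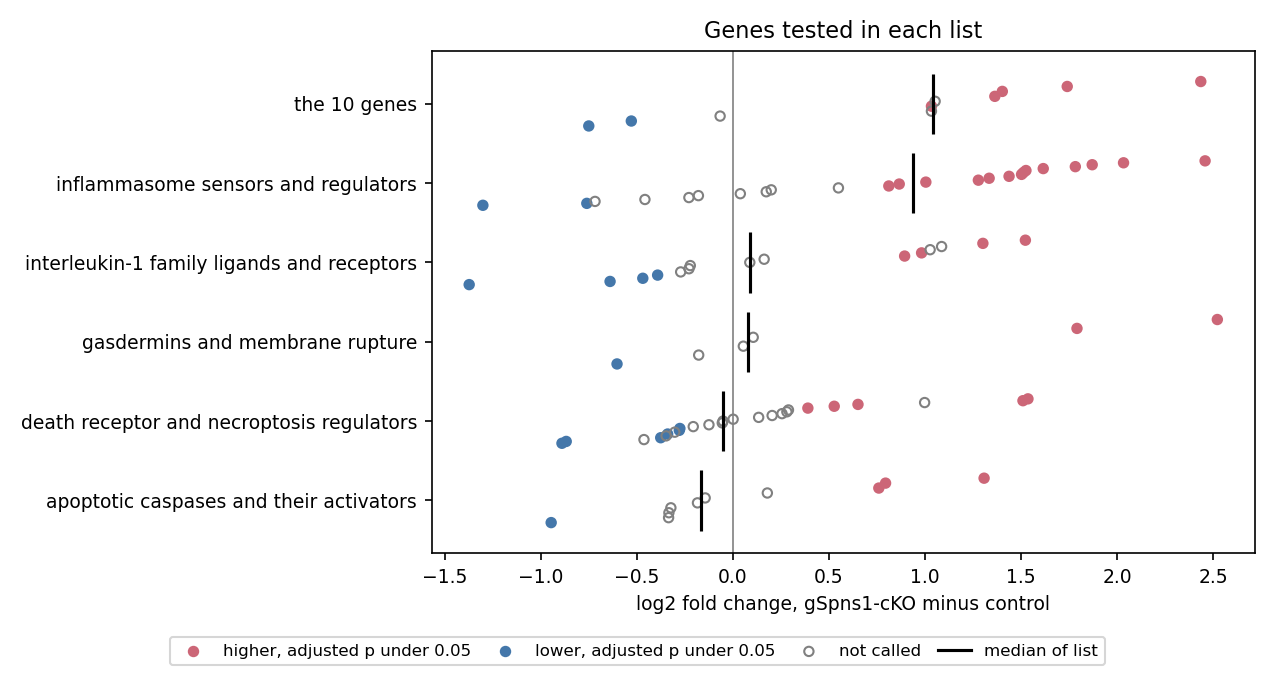
Log2 fold change (gSpns1-cKO minus control) of each gene tested in the set of 10 and in the 5 further lists, with 1 point per gene, filled where the adjusted p is under 0.05, and a line at the median. The medians of the set of 10 and of the inflammasome list are 1.04 and 0.935, and those of the other 4 lists lie between -0.165 and 0.0872.

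Among 13 genes of gasdermins and membrane rupture, the 7 genes of the gasdermin A and C groups had no count in any library, which allows up to 0.0763 to 0.119 CPM each. Of the 6 tested, 2 rose and 1 fell. *Gzma* and *Gzmb*, which encode granzymes of cytotoxic lymphocytes, had log2 fold changes of 2.52 and 1.79 (edgeR adjusted p = 0.00341 and 0.00208). *Gzma* had 3, 4 and 8 counts among the controls against 51, 28 and 40 in the cKO livers. *Ninj1*, which tears the membrane after pores have formed, fell by 0.60 on the log2 scale (edgeR adjusted p = 0.00425), and with library size only it had -0.16 (adjusted p = 0.305). *Gsdme*, the other gasdermin gene with counts among those listed, had a log2 fold change of 0.10 (edgeR adjusted p = 0.520).

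Of 26 death receptor and necroptosis regulators, 25 were tested, 5 rose and 6 fell, with a median log2 fold change of -0.0521. *Tnfaip3*, which encodes the ubiquitin-editing inhibitor A20, rose from 76, 106 and 96 counts to 304, 382 and 409, with log2 fold change at 1.54 (edgeR adjusted p = 0.000163). *Tnfrsf10b*, a death receptor, was counted 5, 15 and 6 times against 43, 15 and 41, with log2 fold change at 1.51 (edgeR adjusted p = 0.0491), with overlapping groups; its call was lost without any one of control replicates 1 and 3 and g*Spns1*-cKO replicates 1 and 3. *Fas* fell from 434, 533 and 480 counts to 362, 331 and 361, with log2 fold change at -0.89 (edgeR adjusted p = 0.000548). The adaptor *Fadd*, the caspase-8 regulator *Cflar* and the sensor *Zbp1* did not pass, with log2 fold changes of -0.13, 0.00041 and -0.30 (edgeR adjusted p = 0.541, 0.998 and 0.570). The number of genes called lower was sensitive to single libraries, at 2 or 3 without control replicates 1, 2 or 3 or without g*Spns1*-cKO replicates 2 or 3, and 3 genes were called higher without control replicate 3 or without g*Spns1*-cKO replicates 1 or 3.

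Markers of several liver cell types differed between the genotypes, where 21.3% of all genes tested were called higher and 20.5% lower. Under a mean of 10 CPM these shares were 29.4% and 8.66%, and from 10 CPM on they were 13.7% and 31.5%. In whole liver, a change in the number of cells of a type and a change in RNA per cell cannot be told apart. Of 14 macrophage markers, 13 rose and none fell, and their summed level was 327.5 to 501.9 CPM in control livers and 1135 to 1588 in g*Spns1*-cKO livers, a 3.06-fold difference of the means. Lipid-associated macrophage markers summed to 136.9 to 256.7 and 879.7 to 987.7 CPM (7 of 8 rose), monocyte markers to 6.62 to 10.3 and 18.1 to 21.8 CPM (6 of 7 rose). Neutrophil markers summed to 3.88 to 6.82 and 10.3 to 16.6 CPM, with 5 of 11 tested and 4 higher. Those higher were *S100a8*, *S100a9*, *Csf3r* and *Retnlg*, and *Cxcr2* did not pass. The defining neutrophil gene *Ly6g*, with 0, 2 and 0 counts in the controls and none in the cKO livers, had too few to test. The granule genes *Mpo*, *Elane*, *Camp*, *Ngp* and *Ltf* also had too few counts to test. T and NK cell markers (3 of 9 higher, 1 lower) summed to 5.55 to 6.28 and 7.84 to 9.02 CPM. Those higher were *Nkg7*, *Klrb1c* and *Ncr1*, and *Cd4* was lower. The T cell genes *Cd3e*, *Cd3d*, *Cd3g*, *Cd8a* and *Trbc2* did not pass. Hepatocyte markers, all with a mean above 10 CPM, fell in 5 of 9 and summed to 111100 to 120500 and 67360 to 78290 CPM.

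Set against the summed macrophage markers of the same library, the 5 genes that rose had overlapping groups, although their CPM did not overlap. *Pycard* and *Il1b* overlapped as well. The marker sum itself was 3.06-fold higher in g*Spns1*-cKO livers. A gene that rose by a similar factor therefore loses its separation, and one that did not rise becomes separated, whatever cells hold its RNA. Fold differences of the 5 genes on this scale ran from 0.647 for *Mlkl* to 2.25 for *Nlrp3*. Per 1000 macrophage marker counts there were 2.51 to 5.10 *Casp1* counts in control livers and 2.33 to 3.42 in g*Spns1*-cKO livers. For *Casp4* these were 2.06 to 2.52 and 2.05 to 3.01, and for *Ripk3* 1.52 to 2.52 and 1.63 to 2.23. *Mlkl* had 7.24 to 15.7 and 5.47 to 8.09, and *Nlrp3* 0.236 to 1.40 and 0.788 to 1.93. *Gsdmd*, *Casp8* and *Ripk1* were separated on this scale, and *Casp8* had 59.3 to 76.8 in the controls and 13.3 to 15.7 in the cKO livers. The part that macrophages, or any other cell type, had in the changes of the 10 genes was not tested.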

How the data were processed

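RNA was sequenced from the livers of 3 control and 3 g*Spns1*-cKO mice, grouped by the sample titles. The authors deposited whole-number counts per gene, not normalized, in one table. The submitters' processing notes name fastp, HISAT2 2.0.5, featureCounts 1.5.0-p3 and the mm10 build; whether counting used strand is not given in the sources used here. The table also holds FPKM values (6 columns) and the authors' own comparison (group means, log2 fold changes and p-values), which were not used here. Positions of all 10 genes equal those in GENCODE M21 (GRCm38).

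Counts were filtered by filterByExpr with genotype as group, scaled by TMM and compared with edgeR 4.0.16 in R 4.3.3 (robust glmQLFit, glmQLFTest, no covariate, Benjamini-Hochberg adjustment over all genes tested, threshold 0.05). The standard error is the size of the log2 fold change over the square root of F, and intervals are 95%. CPM uses the TMM-scaled library size of the tested genes; CPM per kilobase divides it by the deposited gene length. The exact permutation test enumerates all splits of 3 against 3, of log2 ratios. The alternatives were DESeq2 1.42.0, voom of limma 3.58.1, 2 scalings, 2 filters, a replicate block, each mouse left out and a threshold of 0.01. The edgeR script was tested on simulated counts for the recovery of planted changes, which does not test the choice of scaling. No libraries of a group agreed within sampling noise (chi-square per gene 38.8 or more); whether mice came from separate litters is not given, so p-values measure the spread between these mice.

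Genes named are *Spns1*, the 10 genes, and the 3 most changed called genes of each further list; where others are named, they were chosen after their values were seen, as were the ratios of counts and the split at 10 CPM. The genes and lists were chosen with earlier results of these data known, so they are described and not tested as sets. One marker symbol, *Tf*, was not found. Values of some single genes of the apoptotic list are not reported here.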

Additional observations from a re-analysis of the deposited data

How the results depend on the processing

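The count of higher genes among the 10 was between 4 and 7 under every alternative except library size only, which gave 8 higher and 0 lower; the count of lower genes was 2 in all others. With at least 10 counts in every library, *Nlrp3* could not be tested. Library size only also moved all genes to 7289 higher and 970 lower, the inflammasome list to 1 lower, the interleukin-1 list to 7 higher and 1 lower, the gasdermin list to 4 higher and 0 lower and the death receptor list to 14 higher and 2 lower; *Spns1* had -0.43 there and -0.74 with upper-quartile scaling, neither past the threshold. *Ripk1* reversed with upper-quartile scaling (0.065) and library size only (0.38). Upper-quartile scaling gave 2 lower genes in the death receptor list, DESeq2 4 lower in the inflammasome list, the filter of at least 1 count 3 lower in the apoptotic list, and the filter of at least 10 counts 1 higher in the gasdermin list and 3 lower in the death receptor list. A threshold of 0.01 left 1983 genes higher and 1907 lower, 7 higher in the inflammasome list, and 3 higher and 2 lower in the death receptor list. Apart from the scalings, whose shift of all genes is part of their construction, the cause was not tested.

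With each mouse left out in turn, *Spns1* ranged from -1.18 to -0.68, the inflammasome list from 9 to 12 higher and 2 to 4 lower, the death receptor list from 3 to 5 higher and 2 to 6 lower, and the apoptotic list from 1 to 4 lower. No pairing of the mice by the replicate numbers of the labels was visible: deviations of same-numbered libraries correlated at 0.0371, 0.0331 and -0.0279. Those of differently numbered libraries correlated between -0.0654 and 0.0325. Values this small do not show whether the mice were paired by design. With the number as a replicate block, 6 of the 10 genes were higher and 2 lower, since *Pycard* passed (log2 fold change 1.15, edgeR adjusted p = 0.0312), and 2 genes of the apoptotic list were lower. At this depth the 7 genes under 10 CPM rest on few reads, and intervals are wide.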

Other observations

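Of 10 apoptotic caspases and their activators, all tested, 3 rose and 1 fell, with a median log2 fold change of -0.165. *Apaf1*, the scaffold of the apoptosome, was counted 73, 62 and 54 times in the controls and 193, 233 and 207 times in the cKO livers, with log2 fold change at 1.31 (edgeR adjusted p = 0.000695). *Casp6*, an executioner caspase, rose by 0.79 on the log2 scale (edgeR adjusted p = 0.00475), and *Casp2* by 0.76 (edgeR adjusted p = 0.00709). *Casp9*, the caspase that the apoptosome activates, did not pass, with a log2 fold change of -0.34 (edgeR adjusted p = 0.103). Without g*Spns1*-cKO replicate 1, 4 genes of this list passed as lower.

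Markers of further cell types in whole liver also differed, where 21.3% of all genes tested were called higher. This share was 29.4% under a mean of 10 CPM and 13.7% from 10 CPM on. All 5 cholangiocyte markers rose, summing to 5.46 to 6.72 CPM in control livers and 23.2 to 32.1 in g*Spns1*-cKO livers. Stellate cell markers (5 of 7 higher) summed to 176.4 to 205.7 and 459.8 to 529.2 CPM, sinusoidal endothelial markers (5 of 6 higher) to 166.4 to 171.4 and 227.6 to 272.2 CPM, and B cell markers (1 of 5 tested higher) to 17.6 to 24.0 and 41.8 to 60.4 CPM.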
